A study of Mus musculus with 12 samples.

Results

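SAGA and ATAC are large nuclear complexes that activate transcription, and KAT2A (GCN5) and KAT2B (PCAF) are the interchangeable acetyltransferases that both complexes use on histone H3. A listed set of 30 genes is described here: Kat2a, Kat2b and 28 further subunits of the 2 complexes. They were found by mapping the Ensembl identifiers of the count files to mouse symbols, and all 30 matched 1 of the 48526 gene rows. Of the 30, 29 passed the filter on low counts and were tested. Taf9 did not pass it.

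RNA came from intestinal epithelial cells of 4 female mice aged 3 months, freed with EDTA. The sample titles call them cells of the whole intestine, whereas the extraction protocol names the proximal part of the small intestine. In 2 mice, called DKO, a double knockout of Kat2a and Kat2b was induced in the adult with 4 daily tamoxifen injections at 100 mg/kg, and the 2 control mice received the ethanol and corn oil solvent without tamoxifen. Cells were taken 2 days after the treatment ended, and genotype and tamoxifen cannot be told apart in these groups. The recombinase driver, the targeted exons and the alleles of the control mice are not given in the sources used here. Each mouse gave an input library and a library pulled down with each of the antibodies J2 and K1, which bind double-stranded RNA whatever its sequence, so 12 libraries form 6 groups of 2. Pulldowns with a control antibody are not analysed here.

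The subunits fall into modules. In SAGA, KAT2A or KAT2B sits in an acetyltransferase module with TADA2B, TADA3 and SGF29. A core of histone-fold proteins and WD40 proteins holds the complex together, TRRAP contacts activators, a deubiquitinase module built on USP22 removes ubiquitin from histone H2B, and SF3B3 with SF3B5 forms a splicing module. ATAC pairs the same acetyltransferases with TADA2A and with KAT14, YEATS2, ZZZ3, DR1, MBIP and WDR5. The intestinal epithelium is renewed from stem cells of the crypts, whose progeny divide and mature mostly into absorptive enterocytes.

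Libraries held 10307281 to 11474107 gene counts for input, 13308021 to 16139531 for the control pulldowns and 2220291 to 5826361 for the DKO pulldowns. Replicates correlated at r = 0.984 or higher (log2 CPM, where CPM is the count scaled to library size) in the input and control groups, at 0.901 in DKO J2 and at 0.929 in DKO K1. The 30 genes together took 0.0870% to 0.107% of the gene counts in input, 0.153% to 0.158% in the control pulldowns and 0.0937% to 0.141% in the DKO pulldowns. Epithelial markers were abundant in every library, with 10 of 10 detected throughout and a summed level of 7145 to 7338 CPM in control input and 6491 to 7850 CPM in DKO input. Leukocyte markers summed to 147 to 148 CPM in control and 97 to 113 CPM in DKO input. Stromal and endothelial markers summed to 2.63 to 6.49 and 5.00 to 7.59 CPM in input, but to 35.8 to 209 CPM in the DKO pulldowns against 3.82 to 41.7 CPM in the control pulldowns, and the part of these cells in the pulldown results was not tested.

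Promoters are shown for the deleted pair and for the 3 other subunits whose input RNA is described first. Those of Atxn7 and Atxn7l2, which were also called in input, are not shown. Each line is the 250 bases before the transcription start in the RefSeq table (GRCm38.p6), written 5′ to 3′ on the gene's strand, and capitals mark the matches to the motifs searched. The windows are chr11:100712468-100712717 on the minus strand for Kat2a, chr17:53566721-53566970 on the plus strand for Kat2b, chr17:44776916-44777165 on the plus strand for Supt3, chr4:132274125-132274374 on the plus strand for Taf12 and chr11:102296630-102296879 on the minus strand for Atxn7l3.
Kat2a: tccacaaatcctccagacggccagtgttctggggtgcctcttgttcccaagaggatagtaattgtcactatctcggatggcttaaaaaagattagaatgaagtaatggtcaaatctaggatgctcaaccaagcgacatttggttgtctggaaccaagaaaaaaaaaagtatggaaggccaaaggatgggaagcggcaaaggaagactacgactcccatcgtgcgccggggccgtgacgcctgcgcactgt
Kat2b: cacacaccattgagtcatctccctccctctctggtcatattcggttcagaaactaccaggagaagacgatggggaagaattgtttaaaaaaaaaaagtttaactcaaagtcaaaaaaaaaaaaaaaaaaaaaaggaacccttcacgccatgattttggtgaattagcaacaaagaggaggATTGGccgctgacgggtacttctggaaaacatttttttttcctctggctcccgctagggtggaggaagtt
Supt3: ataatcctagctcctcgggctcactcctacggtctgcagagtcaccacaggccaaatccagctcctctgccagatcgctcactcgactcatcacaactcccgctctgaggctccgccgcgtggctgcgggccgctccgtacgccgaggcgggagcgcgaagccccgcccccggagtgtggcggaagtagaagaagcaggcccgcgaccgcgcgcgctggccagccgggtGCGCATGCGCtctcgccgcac
Taf12: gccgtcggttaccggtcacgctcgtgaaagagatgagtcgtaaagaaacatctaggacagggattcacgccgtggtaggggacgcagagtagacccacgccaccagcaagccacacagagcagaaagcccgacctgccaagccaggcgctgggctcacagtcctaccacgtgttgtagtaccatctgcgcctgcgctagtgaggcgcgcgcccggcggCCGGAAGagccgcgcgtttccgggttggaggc
Atxn7l3: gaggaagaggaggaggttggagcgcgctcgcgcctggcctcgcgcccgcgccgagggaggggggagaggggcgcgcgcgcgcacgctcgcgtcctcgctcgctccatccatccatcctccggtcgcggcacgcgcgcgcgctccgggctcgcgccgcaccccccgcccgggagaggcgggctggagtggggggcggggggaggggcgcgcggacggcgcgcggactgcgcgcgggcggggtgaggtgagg

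Of the 30 genes, 26 had an entry in that table, with 37 windows. The member windows held a median of 21 CpG dinucleotides and 63.2% GC, against 6 and 52.4% over all 32851 windows. Kat2a and Kat2b had fewer than most members, with 11 and 6 CpG, while Atxn7l3 had 46, Supt3 30 and Taf12 25. On both strands, the ETS motif CCGGAAG was found in 5 member windows (13.5%), among them that of Taf12, and in 6.91% of all windows. A CCAAT box (CCAAT) was found in 6 member windows (16.2%), among them that of Kat2b, and in 33.8% of all. The NRF1 motif GCGCATGCG matched the Supt3 window on both strands, in overlapping letters, and no other member's, against 1.45% of all windows. The letters TATAAA were found for Sf3b3 alone, against 12.4% of all windows, and those of E2F (TTTCCCGC, 0.895%), YY1 (AAGATGGC, 1.56%) and the interferon-stimulated response element (2.98%) in 0 member windows.

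In input, Kat2b RNA was at 28.6 and 24.7 CPM in the control libraries and at 9.84 and 8.38 CPM in the DKO libraries. Both DKO values lay far below both control values. Kat2b (ENSMUSG00000000708.14, chr17:53566861-53672720) thus fell by 1.51 on the log2 scale (SE 0.165, edgeR quasi-likelihood test with Benjamini-Hochberg adjusted p = 6.32e-04), to 35.1% of control. Kat2a (ENSMUSG00000020918.14, chr11:100704746-100712465) was at 17.7 and 16.4 CPM in control and at 7.0 and 10.9 CPM in DKO. Its groups did not overlap either, and it fell by 0.88 (SE 0.227, edgeR adjusted p = 0.0205), to 54.2% of control. Both calls held in all 9 alternative fits. The counts cover whole genes in all cells of the preparation and do not show which exons were lost. No exon of the 2 genes overlapped another gene, and no near-identical transcript was found for either.

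Apart from the deleted pair, 5 subunits changed in DKO input. Supt3, Atxn7l2, Taf12, Atxn7l3 and Atxn7 passed the test, which made 7 of 29 members (24.1%), 3 higher and 4 lower, while 35.9% of all 15088 genes tested passed, 18.8% higher and 17.1% lower. Without TMM scaling the split was 0 higher and 6 lower. The members' median log2 change was -0.17, against 0.00 over all genes. DKO and control libraries did not overlap for 22 of 29 members (75.9%) and for 72.9% of all genes. DESeq2 called 3 members (Kat2a, Kat2b and Atxn7l3), and a fit of all 12 libraries called Kat2a and Kat2b. The share of all genes called in these fits, and without TMM, is not given here.

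**Figure D1:**
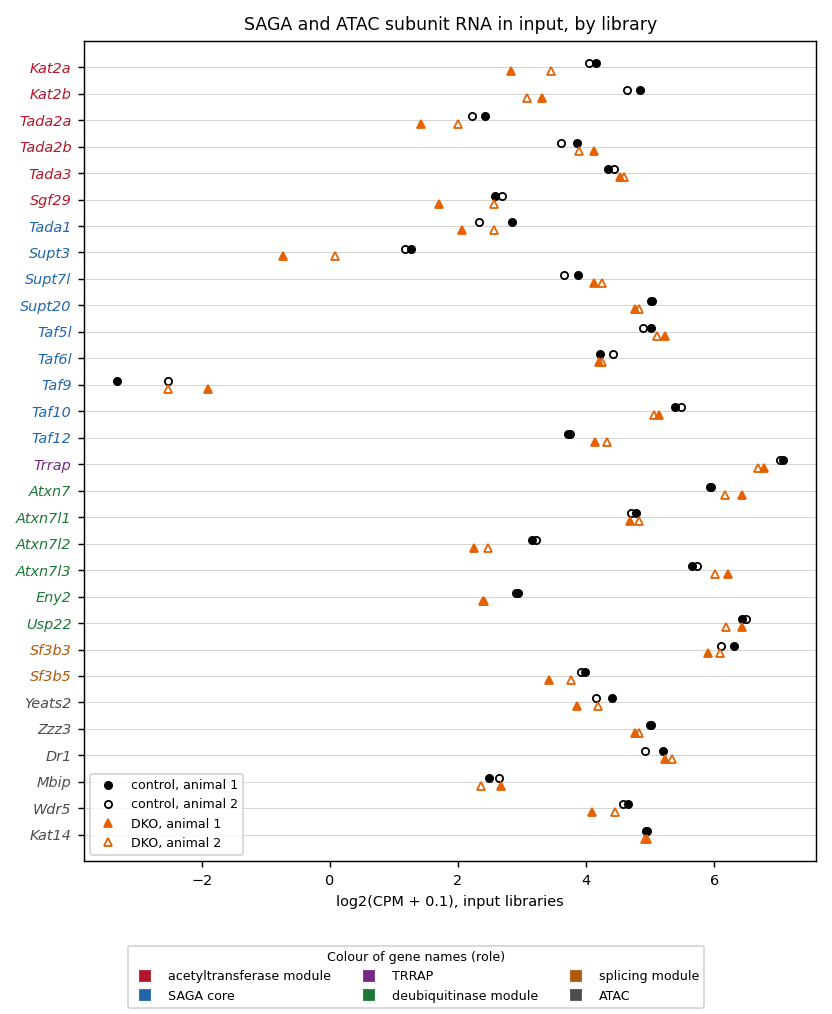
RNA level of the 30 subunits in the 4 input libraries, as log2(CPM + 0.1), with control libraries as circles and DKO libraries as triangles and gene names coloured by module. Kat2a, Kat2b and Supt3 show the DKO points to the left of the control points, and Taf9 lies near the lower limit in every library.

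In the SAGA core, Supt3, a histone-fold subunit that helps bring the TATA-binding protein to promoters, was at 2.31 and 2.16 CPM in control (29 and 30 counts) and at 0.500 and 0.956 CPM in DKO (6 and 13 counts). All 4 values were low, and both DKO values were under the control values. It fell by 1.54 (SE 0.385, edgeR adjusted p = 0.0183), a call that was lost with DESeq2, in the fit of all 12 libraries and without the first DKO library. Taf12, a histone-fold subunit shared with the general factor TFIID, was at 13.1 and 13.3 CPM in control and at 17.4 and 20.0 CPM in DKO. The DKO libraries were both higher, and Taf12 rose by 0.54 (SE 0.156, edgeR adjusted p = 0.0305), but not without TMM (0.42, adjusted p = 0.146). The other 6 tested core genes did not pass, with log2 changes from -0.30 for Taf10 to 0.46 for Supt7l.

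Of the 6 genes of the deubiquitinase module 3 changed, in both directions. Atxn7l3, the adaptor that switches on USP22, was at 50.2 and 52.9 CPM in control and at 74.4 and 64.7 CPM in DKO. Atxn7, the subunit that anchors the module to SAGA, was at 61.5 and 61.1 CPM in control and at 86.1 and 72.2 CPM in DKO. Both genes were higher in both DKO libraries, Atxn7l3 by 0.47 (SE 0.124, edgeR adjusted p = 0.0228) and Atxn7 by 0.41 (SE 0.129, adjusted p = 0.0436), and neither passed without TMM (adjusted p = 0.0663 and 0.116). Atxn7l2, a paralog of Atxn7, was at 8.83 and 9.23 CPM in control and at 4.67 and 5.44 CPM in DKO. It fell by 0.79 (SE 0.208, edgeR adjusted p = 0.0222) with groups that did not overlap, a call that was lost with DESeq2 and in the fit of all 12 libraries. The catalytic subunit Usp22 changed by -0.10, Eny2 by -0.50 and Atxn7l1 by 0.07, and none of these passed the test. The rises of Taf12, Atxn7l3 and Atxn7 and the fall of Atxn7l2 were called only with both control libraries in the fit.

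Outside those modules no subunit passed the input test. In the acetyltransferase module the 4 genes other than Kat2a and Kat2b had log2 changes of -0.54 (Tada2a, the ATAC adaptor), -0.40 (Sgf29, the reader of methylated histone H3), 0.21 (Tada3) and 0.32 (Tada2b, the SAGA adaptor). Trrap changed by -0.28 (SE 0.117, edgeR adjusted p = 0.0986). The splicing subunits Sf3b3 and Sf3b5 changed by -0.17 and -0.31. The 6 ATAC genes ranged from -0.29 (Wdr5) to 0.26 (Dr1), with Kat14, which encodes the second acetyltransferase of ATAC, at 0.03.

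**Figure D2:**
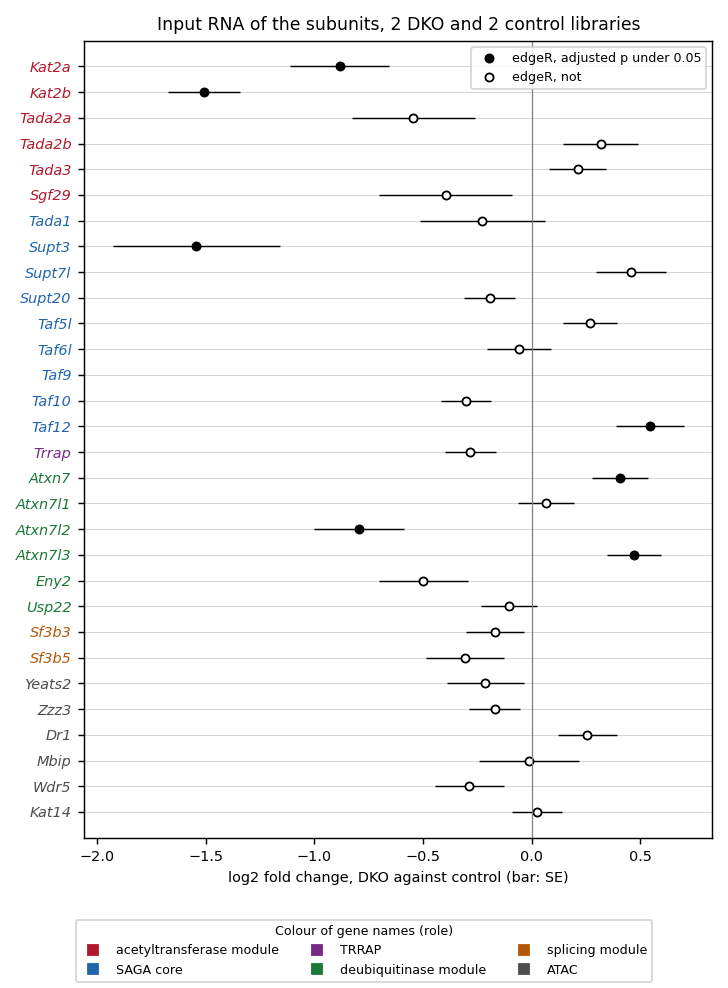
Log2 fold change of each subunit between 2 DKO and 2 control input libraries, with bars of 1 SE and filled points where the adjusted p was under 0.05. Kat2b and Supt3 lie lowest, near -1.5, and the filled points above 0 are Taf12, Atxn7l3 and Atxn7, all 3 of which lost the call without TMM.

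Markers of dividing and stem cells fell alongside. Of 14 proliferation markers 12 were called lower in DKO input (median -1.5), with summed levels of 507 to 586 CPM in control and 169 to 218 CPM in DKO. Of 9 stem cell markers 6 were called lower (median -1.63), with 687 to 695 against 230 to 295 CPM, and none of either list was at 0 in any library. Their part in the changes of the subunits was not tested. In these bulk samples fewer cells of a type and less RNA per cell cannot be told apart.

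Per kilobase of exon, the level in control input was highest for Usp22, at 18.0 ± 0.536 CPM per kb (SD, n = 2), followed by Atxn7l3 at 12.5 ± 0.462. The exon length used here is the union over all transcripts of a gene. Dr1 at 9.61 ± 1.29, Taf10 at 9.46 ± 0.447 and Taf5l at 8.63 ± 0.529 came next and did not differ beyond their spread. Kat2b at 5.47 ± 0.559, Tada3 at 5.38 ± 0.244, Supt20 at 5.17 ± 0.0313 and Kat2a at 4.90 ± 0.250 lay within their spread of one another in the middle of the list. Per kilobase of the longest protein-coding transcript Usp22 was again first, but Sf3b3 was second (16.4, against 6.78 per kb of exon) and Supt20 was at rank 4 in place of 13 (11.8), so the order depends on the length chosen. Supt3 at 0.542 ± 0.0250 was the lowest of the tested genes. Taf9 was below it, with 0 to 4 counts in every library, and is not interpretable: 73.8% of its exon bases overlap Ak6 on the same strand, and Ak6 had 2 to 44 counts.

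Pulldown was compared with input to ask which subunit transcripts the antibodies enriched. Of the 2 deleted acetyltransferase genes, Kat2b was called enriched in all 4 comparisons and Kat2a in 1. In J2 libraries Kat2b was at 79.9 and 73.2 CPM in control and at 32.1 and 22.8 CPM in DKO, and in K1 libraries at 72.7 and 67.7 CPM and at 34.4 and 28.1 CPM. In each genotype every pulldown value was above every input value. On the log2 scale Kat2b rose in control by 1.53 (J2, SE 0.242) and 1.32 (K1, SE 0.192), and in DKO by 1.62 (J2, SE 0.255) and 1.71 (K1, SE 0.213), with edgeR adjusted p of 0.00446, 7.96e-04, 0.00566 and 4.62e-04. The K1 calls held in all 10 alternatives in both genotypes.

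Kat2a differed from Kat2b in this respect. In J2 it was at 23.2 and 23.4 CPM in control and at 8.16 and 11.4 CPM in DKO, and in K1 at 38.1 and 37.1 CPM and at 9.74 and 9.96 CPM. The control K1 values stood well above input, and the DKO pulldown values overlapped those of DKO input. Kat2a was called with K1 in control (1.06, SE 0.237, edgeR adjusted p = 0.00577) and not with J2 in control (0.45, adjusted p = 0.259), J2 in DKO (0.15, adjusted p = 0.747) or K1 in DKO (0.05, adjusted p = 0.914). The K1 call was lost on thinning every library to the shallowest total, with the animal as a block (0.64, adjusted p = 0.0874), and without the second control input library. The DKO pulldowns held 22 to 41 counts of Kat2a.

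Across all subunits, J2 against input in control called 11 of 29 members (37.9%), 9 higher and 2 lower, where 29.8% of the 15923 genes tested passed, 15.2% upward and 14.6% downward. K1 in control called 16 (55.2%), 13 higher and 3 lower, where 39.8% of the 15908 tested did, 19.7% upward and 20.1% downward. In DKO, J2 called 8 members (27.6%), 6 higher and 2 lower, against 25.7% of all genes, 12.2% higher and 13.4% lower. K1 in DKO likewise called 8, 6 higher and 2 lower, against 35.6% of all genes, 14.6% higher and 21% lower. Without TMM the split was 3 higher and 3 lower, and the share of all genes called there is not given here. Pulldown and input libraries did not overlap for 24 members with J2 (81.3% of all genes) and 26 with K1 (78.9%) in control, and for 15 (57.3%) and 17 (63.8%) in the same order in DKO. The members' median change was 0.05 for J2 in control, which became -0.32 without TMM, and 0.38 for K1 in control. In DKO it was 0.67 for J2 and 0.24 for K1, of which the latter became -0.06 without TMM and the former -0.02 without the second DKO J2 library. The medians of all genes were -0.07, 0.00, 0.10 and -0.14 in that order. Without TMM those moved to -0.44, -0.23, -0.26 and -0.48, so enrichment here is relative to the other genes of a library.

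Kat2b, Atxn7l3, Kat14 and Wdr5 were called higher in all 4 pulldown comparisons, and Taf6l was called lower in all 4. The J2 and K1 comparisons of a genotype use the same input libraries. Of the 29, 15 were called higher in at least 1 comparison and 5 lower in at least 1. The share of all genes called in the same direction across comparisons was not counted. These joint counts therefore do not set the subunits apart from other genes. The calls were sensitive to single libraries. The share of all genes called in the fits that left 1 out is not given here, so these shifts cannot be set against those of all genes. J2 in control called 0 members without either control input library (10 at an unadjusted p under 0.05 in both edgeR fits) and 2 without either J2 library, and K1 in control called 7 and 4 without the first and the second input library. J2 in DKO called 18 members without the first DKO J2 library, 16 without the second, 0 without the first DKO input library (5 at an unadjusted p under 0.05) and 1 without the second. K1 in DKO called 13 without the first DKO K1 library.

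**Figure D3:**
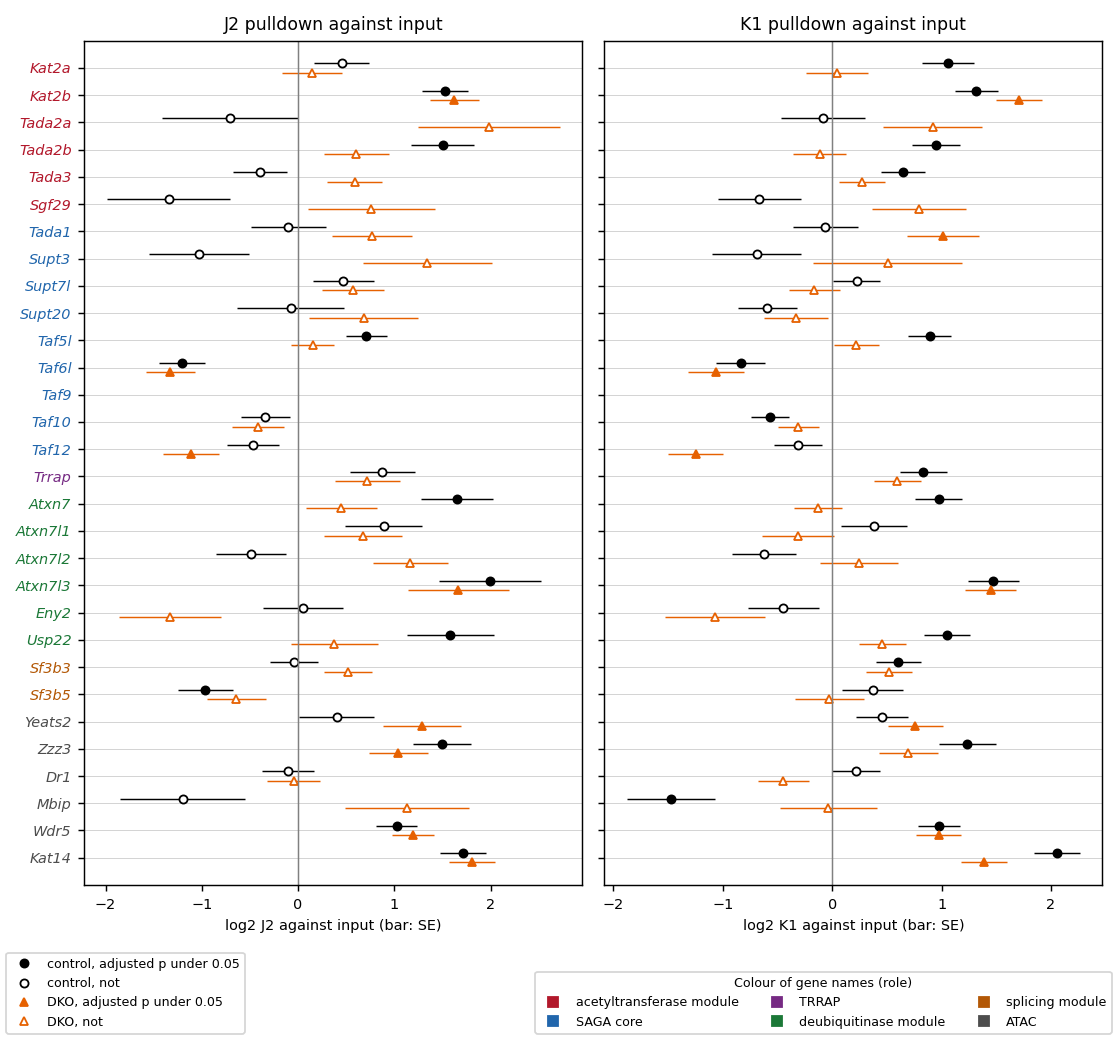
Log2 change of pulldown against input for 29 subunits (Taf9 was not tested), J2 left and K1 right, with control as circles and DKO as triangles, bars of 1 SE, and filled symbols at an adjusted p under 0.05. Kat2b, Atxn7l3, Kat14 and Wdr5 carry filled symbols to the right of 0 in all 4 comparisons and Taf6l to the left, while Wdr5 lost 3 of its 4 calls without TMM.

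In the rest of the acetyltransferase module Tada2b was called in control. It was at 14.3 and 12 CPM in control input, at 37.5 and 37.1 CPM in J2 and at 29.5 and 24.1 CPM in K1. The pulldown values were all above the input values, by 1.5 with J2 (SE 0.328, edgeR adjusted p = 0.0126) and by 0.95 with K1 (SE 0.221, adjusted p = 0.00702). The J2 call stayed in 6 of 10 alternatives and in no fit that left out a library, and the K1 call in 7 of 10. In DKO Tada2b was at 17.3 and 14.7 CPM in input, at 32.1 and 15.4 CPM in J2 and at 15.4 and 15.9 CPM in K1. These values overlapped and were not called. Tada3, the scaffold of the module, was called with K1 in control (0.64), a call that stayed in 2 of 10 alternatives and was lost without any 1 of the 4 control libraries (and with DESeq2 and without TMM). Tada2a and Sgf29 were called in none of the 4.

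In the core, Taf6l, a histone-fold scaffold subunit, was depleted. It was at 18.5 and 21.3 CPM in control input and at 18.3 and 18.9 CPM in DKO input. In J2 it was at 8.10 and 9.06 CPM in control and 7.39 and 7.09 CPM in DKO, and in K1 at 10.7 and 12.9 CPM and at 10.7 and 7.70 CPM. Every pulldown library was below every input library, with log2 changes of -1.21 (J2, control), -0.84 (K1, control), -1.33 (J2, DKO) and -1.06 (K1, DKO) and edgeR adjusted p of 0.00850, 0.0136, 0.0103 and 0.0104. The J2 and K1 calls in control each stayed in 6 of 10 alternatives, and neither stayed in any fit that left out a library. In DKO the J2 call stayed in 7 of 10 and the K1 call in 9 of 10. The change was negative in every alternative.

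Taf12 was called lower in DKO pulldowns. Its DKO values were 6.88 and 10.2 CPM in J2 and 7.84 and 9.06 CPM in K1, all below the 17.4 and 20.0 CPM of DKO input. The log2 changes were -1.11 (SE 0.286, edgeR adjusted p = 0.0261) and -1.25 (SE 0.253, adjusted p = 0.00484), and the latter held in all 10 alternatives. In control it was at 9.95 and 9.06 CPM in J2 and 11.7 and 10.8 CPM in K1, below input in every library, with changes of -0.47 and -0.31 that did not pass. Tada1, a core adaptor, was called with K1 in DKO, at 9.74 and 11.8 CPM against 4.09 and 5.81 CPM in input (1.01, SE 0.329, edgeR adjusted p = 0.0360). The call stayed in 5 of 10 alternatives and was lost without TMM. Of the exon bases of Tada1 34.9% overlap other genes, mainly Pogk on the opposite strand. Near-identical transcripts of other genes covered 65% of its longest protein-coding transcript. Taf5l, a WD40 scaffold subunit, was called higher in control with J2 (0.71) and K1 (0.89), and Taf10 lower with K1 in control (-0.57). The Taf5l J2 call stayed in 2 of 10 alternatives, its K1 call in 8 and the Taf10 call in 4. Supt3, Supt7l and Supt20 were not called, and Supt3 had 3 to 22 counts per pulldown library. Trrap, a large kinase-like scaffold without kinase activity, was called with K1 in control (0.83, adjusted p = 0.0117), and its other 3 changes were between 0.60 and 0.88.

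The strongest J2 enrichment in control was in the deubiquitinase module. Atxn7l3 was at 199 and 212 CPM in control J2 and 145 and 158 CPM in control K1, above the 50.2 and 52.9 CPM of input. In DKO it was at 341 and 92.2 CPM in J2 and 238 and 163 CPM in K1, above the 74.4 and 64.7 CPM of input. The 2 DKO J2 libraries differed more than 3-fold, and the groups still did not overlap. The log2 changes were 2.00 (J2, control, SE 0.531), 1.47 (K1, control, SE 0.234), 1.66 (J2, DKO, SE 0.526) and 1.45 (K1, DKO, SE 0.235), with edgeR adjusted p of 0.0249, 0.00111, 0.0499 and 0.00169. The J2 call in control stayed in 6 of 10 alternatives and in no fit that left out a library. The J2 call in DKO stayed in 5 of 10. It was lost with the animal as a block (edgeR adjusted p = 0.0661) and on thinning, and the change was 0.30 without the first DKO J2 library. Both K1 calls held in all 10 alternatives.

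Atxn7 and Usp22 were enriched in control. Atxn7 was at 198 and 187 CPM in J2 and 138 and 116 CPM in K1, against 61.5 and 61.1 CPM in input. Usp22 was at 253 and 272 CPM in J2 and 187 and 198 CPM in K1, against 86.1 and 89.8 CPM in input. For Atxn7 the log2 changes were 1.66 (SE 0.373, edgeR adjusted p = 0.0140) and 0.97 (SE 0.216, adjusted p = 0.00554). For Usp22 they were 1.58 (SE 0.455, adjusted p = 0.0326) and 1.05 (SE 0.214, adjusted p = 0.00366). For each gene the J2 call stayed in 6 of 10 alternatives and in no fit that left out a library. The K1 call stayed in 7 of 10 for each. In DKO, Atxn7 was at 146 and 66.6 CPM in J2 and 86.0 and 66.1 CPM in K1, overlapping the 86.1 and 72.2 CPM of input. Usp22 in DKO was at 151 and 51.8 CPM in J2 and 129 and 102 CPM in K1, against 86.4 and 72.9 CPM in input, and without the first DKO J2 library its J2 change turned from 0.38 to -0.73. Neither was called in DKO. Eny2, which the module shares with the mRNA export complex TREX-2, Atxn7l1 and Atxn7l2 were called in none of the 4 pulldown comparisons. The splicing subunits Sf3b3 and Sf3b5, shared with the U2 snRNP, had 1 call each, Sf3b3 higher with K1 in control (0.61) and Sf3b5 lower with J2 in control (-0.96). The Sf3b3 call stayed in 1 of 10 alternatives and the Sf3b5 call in 3, and neither stayed in any fit that left out a library.

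Among the ATAC genes, Kat14 had the largest K1 enrichment of all 29 members in control. Its input level was 30.9 and 30.6 CPM in control and 30.7 and 30.2 CPM in DKO. It rose to 91.5 and 110 CPM in control J2, 130 and 140 CPM in control K1, 114 and 94.7 CPM in DKO J2 and 97.9 and 70.2 CPM in DKO K1. All pulldown values were more than 2-fold above all input values. The log2 changes were 1.72 (SE 0.238), 2.05 (SE 0.209), 1.80 (SE 0.240) and 1.39 (SE 0.210) in that order, with edgeR adjusted p of 0.00321, 1.80e-04, 0.00356 and 0.00120. Of its exon bases 14.7% overlap Pet117 on the same strand, and Pet117 had 0 counts in every library. Whether reads over shared exons were counted for either gene is not given in the sources used here, so the 0 does not show that Pet117 is silent.

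Wdr5, a WD40 protein that ATAC shares with the histone H3 lysine 4 methyltransferases, was at 25.0 and 23.6 CPM in control input and 17 and 21.7 CPM in DKO input. Its pulldown values lay between 39.4 and 50.8 CPM in all 8 libraries, above every input library. With J2 it changed by 1.03 (control) and 1.19 (DKO) on the log2 scale, and with K1 by 0.98 (control) and 0.97 (DKO), with edgeR adjusted p of 0.0107, 0.00924, 0.00314 and 0.00555. Zzz3, a DNA-binding subunit, was at 32.3 and 31.8 CPM in control input, 86.0 and 94.2 CPM in J2 and 82.0 and 77.2 CPM in K1. In DKO it was at 27.1 and 28.3 CPM in input, 39.3 and 72.8 CPM in J2 and 33.7 and 62.5 CPM in K1. Both genotypes were higher in pulldown in every library, with log2 changes of 1.5 (adjusted p = 0.00965) and 1.23 (adjusted p = 0.00422) in control and 1.04 (adjusted p = 0.0389) and 0.69 (adjusted p = 0.0683) in DKO. The Zzz3 J2 call in control stayed in 5 of 10 alternatives. It was lost without TMM and in every fit that left out a library, whereas the K1 call in control held in all 10. In DKO the J2 call stayed in 3 of 10 alternatives, with changes from 0.38 to 1.28. With the animal as a block the J2 call in DKO was lost (edgeR adjusted p = 0.0540) and the K1 change was called (0.65, adjusted p = 0.0330).

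Yeats2, a reader of acetylated histones, was called in DKO. It was at 14.3 and 18.2 CPM in DKO input, 21.9 and 56.1 CPM in J2 and 24.2 and 34.9 CPM in K1, and the second animal was the higher in each kind of library. The changes were 1.29 (SE 0.403, edgeR adjusted p = 0.0485) and 0.76 (SE 0.254, adjusted p = 0.0397), and both fell short without TMM (adjusted p = 0.220 and 0.276). Mbip, a scaffold that ties signalling kinases to ATAC, was called lower with K1 in control, at 2.78 and 1.57 CPM against 5.49 and 6.13 CPM in input (-1.48, SE 0.401, edgeR adjusted p = 0.0145). It had a mean of 33 counts in control K1. The call stayed in 6 of 10 alternatives and was lost in the fit of all 12 libraries. Dr1, part of a repressor of TATA-binding protein, was called in no comparison, like Tada2a, Sgf29, Supt7l, Supt20, Atxn7l1 and Eny2.

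The difference in enrichment between DKO and control was tested directly. With edgeR 0 of 29 members passed for either antibody, where 2.71% of all genes passed for J2 (0.772% upward and 1.94% downward) and 5.47% for K1 (1.37% and 4.10%). At an unadjusted p under 0.05 there were 6 of 29 members for J2 and 9 of 29 for K1. Of all genes tested, 4120 of 15923 for J2 and 3736 of 15908 for K1 were under it too. DESeq2 also called 0 and 0 members. The median difference, DKO minus control, was 0.09 for J2 and -0.24 for K1, against 0.00 and -0.20 over all genes, and that for J2 became -0.23 without the filter on low counts. DKO and control animals did not overlap for 19 members with J2 (60.6% of all genes) and 22 with K1 (58.5%). The lowest adjusted p was 0.111 for Atxn7l2 with J2 (1.66) and 0.0625 for Atxn7 with K1 (-1.11), both named after their values were seen. With the animal as a block, K1 called 3 members, namely Atxn7 (-1.11, edgeR adjusted p = 0.0217), Tada2b (-1.06, adjusted p = 0.0352) and Sgf29 (1.52, adjusted p = 0.0314). With that block J2 called 0, with 8 at an unadjusted p under 0.05. The share of all genes called with the block is not given here.

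The counts of members called for these differences moved when single DKO libraries were left out. Such fits leave 1 library in a group, which was assumed to vary like the other groups. The share of all genes called in them is not given here, and the cause of the shifts was not tested. Without the first DKO J2 library, 15 members were called for J2, 9 higher and 6 lower, and without the second 9, all lower. Without the first or the second DKO K1 library, 8 and 4 were called for K1. Atxn7 had same-animal differences of log2 CPM, J2 minus input, of 1.68 and 1.61 in the control animals and 0.76 and -0.12 in the DKO animals. K1 minus input gave 1.16 and 0.93 for the control animals and 0.00 and -0.13 for the DKO animals. The DKO animals lay below the control animals with both antibodies. Kat2a showed K1 minus input values above 1 in both control animals and of 0.46 and -0.12 in the DKO animals, a difference of -1.01 (SE 0.368, edgeR adjusted p = 0.132). For Kat2b the K1 values were 1.34 and 1.45 in the control animals and 1.79 and 1.72 in the DKO animals, a difference of 0.39 (SE 0.283, adjusted p = 0.446).

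The second DKO animal departed most from the other 3 with J2. Its J2 minus input value was 2.47 for Tada2a, 2.03 for Mbip and 1.35 for Supt20, against 0.23, -0.78 and -0.86 in the first DKO animal and -0.61 to -0.77, -0.99 to -1.31 and 0.01 to -0.18 in control. These 3 genes were named after their values were seen. The median over all 30 members was 0.69 in that animal, 0.23 in the first DKO animal and 0.11 in each control animal for J2. For K1 it was 0.44 in that animal, 0.35 in the first DKO animal, and 0.43 and 0.50 in the control animals. The J2 library of that animal held 2691285 gene counts, and 29.5% of its listed reads were not uniquely placed, against 15.8% in the first DKO J2 library and 5.54% to 5.98% in control J2. Mitochondrial genes took 8.76% of its counts, 13.1% in the first DKO J2 library and 2.20% to 2.77% in control J2. The K1 library of the same animal, with the median of 0.44, was shallower still at 2220291 gene counts. In it 46.7% of listed reads were not uniquely placed and mitochondrial genes took 18.6% of the counts. In the first DKO K1 library these shares were 25.9% and 8.76%. The part of depth and of these shares in the result was not tested.

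**Figure D4:**
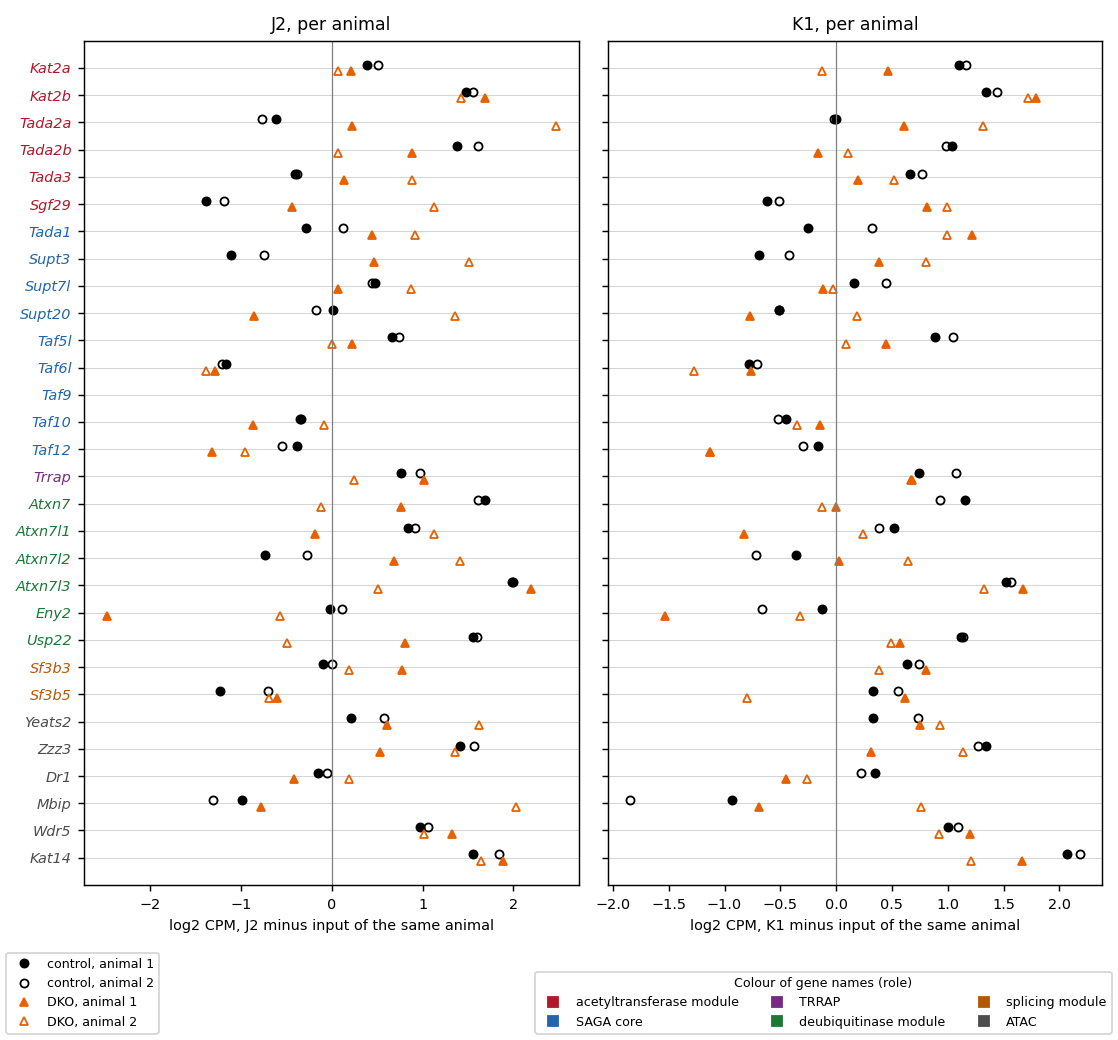
Log2 CPM of pulldown minus input of the same animal, for 29 subunits (Taf9 is left out), with filled and open symbols for the first and second animal of each genotype. The control animals lie close together, while the DKO animals part widely for J2, as for Tada2a, Mbip, Supt20 and Eny2.

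Length was a feature the members' enrichment ran with in control. Over the 29 tested members, Spearman's rho between log2 enrichment and the length of the longest protein-coding transcript was 0.63 (J2) and 0.62 (K1) in control, against -0.10 (J2) and 0.08 (K1) in DKO. With the exon length used for the levels above it was 0.37 (J2) and 0.16 (K1) in control, so the relation depends on the length measure. Over protein-coding genes at large, with transcript length, it was 0.541 (J2, n = 12879) and 0.389 (K1, n = 12853) in control, against 0.208 (J2) and 0.152 (K1) in DKO. These are descriptions across genes of the same libraries, and the points share library, depth and scaling. Mbip (1512 bases), Sgf29 (1312) and Supt3 (1508) were the shortest and all had negative values in control, whereas Trrap (12479), Zzz3 (7607) and Atxn7 (6853) were the longest and all had positive ones. The level in control input ran with enrichment too, with rho of 0.61 and 0.55 in control. GC content did not, with rho of -0.03 and 0.09.

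**Figure D5:**
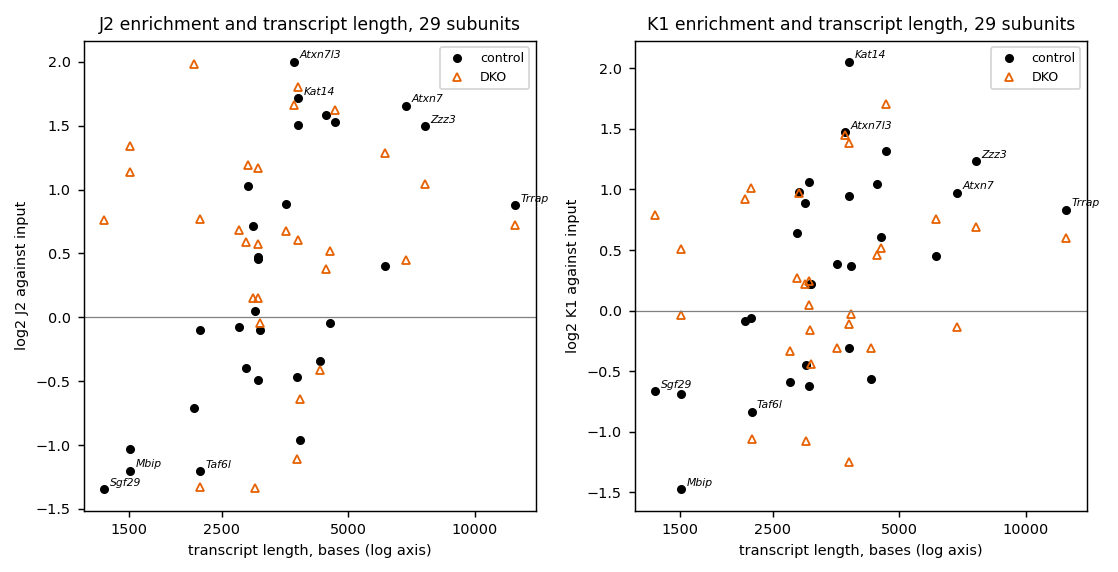
Log2 change of pulldown against input and transcript length (log axis) of 29 subunits, J2 left and K1 right, with control as filled circles and DKO as open triangles. In control the short transcripts Sgf29 and Mbip lie below 0 and the long Zzz3, Atxn7 and Trrap above it, and the DKO points show no such order, with rho of -0.10 and 0.08.

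Some members overlap other genes, and the deposited counts ignore strand. Of the 29 tested members 10 have exon bases under a gene on the opposite strand, from 0.104% (Zzz3) to 45.9% (Taf10, under Ilk). In input 0 of these 10 and 7 of the other 19 were called, where 35.9% of all genes were. For K1 in control 4 of 10 and 12 of 19 were called (39.8% of all genes), and for J2 in control 2 of 10 and 9 of 19 (29.8%). Ilk had 0 to 2 counts in every library, with the same limit as for Pet117. Pogk, over Tada1, was itself enriched in control (J2 2.11, edgeR adjusted p = 0.0186, and K1 1.33, adjusted p = 0.00247), where Tada1 was not called (-0.10 and -0.06). For K1 in DKO, where Tada1 was called, Pogk was at 0.56 (adjusted p = 0.128). Taf5l shares 23.2% of its bases with the near-identical Gm13316. Reads of such pairs cannot be separated, so Tada1, Taf10 and Taf5l are uncertain.

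Partners and paralogs outside the list gave context in input, from lists chosen for their ties to the subunits. In that comparison 18.8% of all genes tested were called higher and 17.1% lower, and the lists were not tested as sets. Taf9b, the paralog of Taf9, had 9 and 7 counts in control and 31 and 34 in DKO, and rose by 2.09 (SE 0.353, edgeR adjusted p = 0.00381; 0.0517 in the fit of all 12 libraries). Atxn7l3b, the paralog of Atxn7l3, was at -0.35 (adjusted p = 0.0489), a call that was kept in 1 of 9 alternatives, the fit without TMM (0.0191), with adjusted p from 0.0511 to 0.690 in the others. Of 9 other subunits of the COMPASS methyltransferases that use WDR5, 0 were called higher and 3 lower, namely Ash2l (-0.93), Dpy30 (-0.79) and Setd1b (-0.62). Among 17 other subunits of the TIP60 acetyltransferase complex, which shares TRRAP, 3 were called higher and 1 lower, with Mrgbp at 1.53, Morf4l2 at 0.69 and Actl6a at -0.55. Of 7 other lysine acetyltransferases Kat6a alone was called (0.42), and of 12 other TFIID subunits Taf4b alone (0.77). None of 5 other SF3b and 5 other TREX-2 subunits passed edgeR, and 0 of each had an unadjusted p under 0.05.

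Among the same partners the pulldowns gave calls in both directions. In control K1, 5 of the 7 other lysine acetyltransferases were called higher and 0 lower, led by Kat6a (1.61), Crebbp (1.05) and Kat6b (0.88). Of all genes 19.7% were called higher and 20.1% lower in that comparison. With J2 in control 3 of the 7 were called higher and 1 lower, against 15.2% and 14.6% of all genes. In DKO K1 edgeR called 0 of the 7 (2 at an unadjusted p under 0.05), where 35.6% of all genes passed. Their median difference of K1 enrichment between genotypes was -0.88, against -0.20 over all genes. For that difference 0 of 7 were called (4 at an unadjusted p under 0.05, as were 3736 of 15908 genes). Of the COMPASS subunits, Setd1b (1.61) and Kmt2d (1.45) were called higher and Dpy30 (-1.49) lower with K1 in control. Setd1b (0.96), Kmt2d (1.51) and Dpy30 (-1.35) were called in the same directions in DKO.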

How the data were processed

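The deposited values are counts of reads per gene that the authors made without using strand, per the labels, in 1 file for each of 12 libraries. Per the submitters' processing notes the tools included STAR 2.7.10b, UMI-tools 1.1.4, SAMtools 1.17 and HTSeq 2.0.2, with the builds mm10 and GRCm38.p4. The counting mode and whether molecular identifiers were collapsed before counting are not given in the sources used here, and counting intervals would cover counting error only. Rows that name no gene did not enter any test or library size, and reads placed outside genes made up 6.76% to 27% of listed reads. Identifiers were mapped through GENCODE M21 (GRCm38), which matched 48144 of 48526 rows without and 40692 with the version. Promoters are from RefSeq.

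The quasi-likelihood test of edgeR 4.0.16 (R 4.3.3) was run over all genes after TMM scaling and filterByExpr (minimum count 10). P-values were adjusted by Benjamini-Hochberg over all genes tested, a gene was called at an adjusted p under 0.05, and the members were read from those fits. The input fit had 4 libraries and 2 residual degrees of freedom, and the input with J2 and input with K1 fits 8 and 4. Differences of enrichment are interaction terms. CPM of each library come from 1 TMM scaling over all 12 libraries, with a prior count of 2 on the log2 scale. Fold changes are from the fits and can differ slightly from ratios of CPM. The fits were also run on simulated counts drawn with the spread estimated from these libraries. Such a run assumes that spread, so it cannot show how the test performs with 2 animals per group.

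Input and pulldown libraries of the same number come from the same animal, since their labels share an animal code, and same-animal libraries deviated together (r of 0.208 to 0.494), so the animal block is a paired alternative. Libraries of a group differed by more than counting noise (chi-square per degree of freedom 9.78 or higher). The 2 animals of a group are separate mice. Alternatives were DESeq2 1.42.0, no TMM, no filter, 1 fit of all libraries, blocks, thinning to 2220291 counts and leaving out each library. Exon overlap was taken from the annotation, and near-identical transcripts with blastn (at least 97% over at least 100 bases).

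The members and lists were chosen with earlier results of these data known. Values of every library are given for Kat2a and Kat2b and, per comparison, for up to 8 called members whose sides do not overlap, largest change first. Up to 3 called genes are named from each context list.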

Additional observations from a re-analysis of the deposited data

Results flagged for a closer look

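Taf2 and Atxn7l3b, genes outside the 30 subunits, differed between genotypes in the enrichment by K1, by the interaction test in edgeR. They were 1 of 12 other TFIID subunits and 1 of 4 tested genes among the paralogs and the Dr1 partner. The other context lists had 0 calls. Over all genes 5.47% passed this test, 1.37% upward and 4.10% downward, so the 2 calls do not set these lists apart. Taf2, a TFIID subunit, had a difference, DKO minus control, of -1.15 (SE 0.282, adjusted p = 0.0432), with 44.8 and 40.3 CPM in control K1 against 26.2 and 27.2 CPM in control input, and 20.4 CPM in both DKO K1 libraries against 25.6 and 31.0 CPM in DKO input. Atxn7l3b, the paralog of Atxn7l3, had a difference of -1.81 (SE 0.334, adjusted p = 0.0203), with 426 and 404 CPM in control K1 and 106 and 74.7 CPM in DKO K1. Control input was at 112 and 117 CPM and DKO input at 88.1 and 86.8 CPM. For this difference both kept the direction under each alternative, but in the fit of all 12 libraries the adjusted p was 0.233 for Taf2 and 0.210 for Atxn7l3b, and on thinning with the animal block Taf2 had 0.0697. Without either input library of a genotype, or without either control K1 library, neither passed (adjusted p from 0.0556 to 0.207).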

How the results depend on the processing

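Counts of members called moved with the tool and the scaling. The share of all genes called in the alternative fits is not given here, so these shifts cannot be set against those of all genes. In input, DESeq2 called 3 members and a fit of all 12 libraries 2 in place of 7, and leaving out 1 library gave 3 to 10. For J2 against input in control, no TMM gave 7 in place of 11, and leaving out 1 library gave 0 to 2, with 10 at an unadjusted p under 0.05 in both edgeR fits that called 0. For J2 in DKO, no TMM gave 4 and thinning with the animal block 3 in place of 8, and leaving out 1 library gave 0 to 18. For K1 in control, the fit of all 12 libraries gave 10 in place of 16, and leaving out 1 library 4 to 10. For K1 in DKO, leaving out 1 library gave 5 to 13 in place of 8. For the J2 difference, where edgeR called 0, no TMM gave 1, no filter 3 and leaving out 1 library 0 to 15. For the K1 difference, also 0, no TMM gave 1, no filter 1, the animal as a replicate block 3 and leaving out 1 library 0 to 8. A lone library left in a group was assumed to vary like the other groups, and the cause of these shifts was not tested.

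Among the members' single-gene values, 3 took the opposite sign with an adjusted p under 0.05. Without the first and the second DKO J2 library, Usp22 for J2 in DKO was -0.73 and 0.81, Supt20 for J2 in DKO was 1.28 and -1.02, and Supt20 for the J2 difference was 1.48 and -0.98. The members' medians that changed sign are -0.32 (J2 in control) and -0.06 (K1 in DKO) without TMM and -0.02 (J2 in DKO) without the second DKO J2 library. That of the J2 difference became -0.23 without the filter and as low as -0.21 on leaving out 1 library, and that of the K1 difference 0.00 on thinning with the animal block. Outside the list, J2 in DKO went from 0.30 to -1.02 for Atxn7l3b without the first DKO J2 library and from 0.23 to -0.60 for Taf2 without the second. In input the numbers of control and DKO name different animals (r = 0.0261), and with the number as a replicate block 7 members were called. The animal block ended 3 calls, all in J2 (Taf5l in control, adjusted p = 0.0548, and Atxn7l3 and Zzz3 in DKO), and added calls for Supt20 with K1 in control (-0.59) and Sgf29 (0.86), Trrap (0.59) and Zzz3 with K1 in DKO, beside the 3 of the K1 difference, and it changed no other call. Of the 50 member calls, 10 held in every alternative: Kat2a and Kat2b in input, Kat2b, Atxn7l3, Kat14 and Zzz3 with K1 in control, and Kat2b, Atxn7l3, Kat14 and Taf12 with K1 in DKO. In DKO pulldowns Supt3 and Eny2 had 3 to 11 counts per library, which limits their precision.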
